A study of Mus musculus with 51 samples.

Results

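The 45 genes described here encode the machinery that copies DNA in S phase and the factors that switch it on. They were given as a list of symbols that runs from the loading of replication origins to the supply of nucleotides. All 45 matched 1 identifier each among the 52636 genes counted in every library. Of these, 42 were tested in every comparison, and Gins2, Cdt1 and Tk1 had a count of 0 in all 51 libraries.

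Before a cell copies its genome, the origin recognition complex, Cdc6 and Cdt1 load the ring-shaped MCM helicase onto DNA. Cdc45 and the GINS complex turn that ring into an active helicase, primase and DNA polymerases copy the strands it opens, and the sliding clamp Pcna, placed by replication factor C, holds the polymerases on DNA. E2F transcription factors drive most of these genes late in G1, when cyclin E and its kinase free them from the retinoblastoma protein. In the mammary gland, estrogen and progesterone set off division of the epithelium, and ERα, the estrogen receptor encoded by Esr1, is made mainly by mature luminal cells.

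The libraries were bulk RNA-seq of cells sorted from the mammary glands of mice at 6 months of age. The mice were WT or carried the D542G or the Y541S change in Esr1, both in the part of the receptor that binds ligand. The sources used here do not say how the mutant alleles were made or in how many copies they were carried. Every mouse, vehicle mice included, carried pellets of the hormones E2 and P4, so no group was without added hormone. The mice then received vehicle (MCT) or giredestrant, an ERα antagonist and degrader, at 30 mg/kg by mouth on each of 4 days. The sorted populations were mature luminal (ML), luminal progenitor (LP) and Basal cells, and a further gate, called N here, whose sorting markers the sources used here do not give. With vehicle, ML and Basal libraries came from WT, D542G and Y541S mice. With giredestrant, ML, LP and Basal libraries came from the same genotypes and N libraries from both mutants. This made 17 groups of 3 libraries, numbered 1 to 3 in the labels. The labels call them biological replicates without saying which libraries came from 1 animal, so p-values measure the spread between these libraries.

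Library totals were 21.4 to 60.1 M counts (median 32.9 M), with 18949 to 22121 genes detected. Marker genes of each sorted type were checked as summed CPM (read counts scaled to library size by TMM). Basal libraries held 20822 to 41505 CPM of the 12 basal markers, against 127 to 2245 CPM in ML. The 10 mature luminal markers summed to 5127 to 6005 CPM in WT ML with vehicle, against 1836 to 2182 in D542G and 2308 to 3326 in Y541S. With giredestrant, D542G libraries labelled ML and LP overlapped on both luminal lists, at 906 to 2969 and 1762 to 2559 CPM of mature luminal markers and at 13220 to 22255 and 13643 to 17712 CPM of progenitor markers. The labels ML and LP were therefore not separated by these markers in that group. Y541S LP libraries held 4137 to 12905 CPM of the 8 fibroblast markers, against 254 to 487 in WT LP. N libraries held basal markers (6144 to 19859 CPM) together with mature luminal markers (2430 to 3458 CPM).

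Levels of some members are uncertain because their exons lie inside other genes and the sources used here do not say how shared reads were counted. The exons of Gins2, Cdt1 and Tk1 lie 100% within the spans of other genes, and their 0 counts are not read as absence. The same held for 87.0% of exon bases of Orc1, 86.5% of Fen1, 63.0% of Ccne2, 55.1% of Chaf1a and 47.0% of E2f8. Pcna, the most familiar mark of S phase at the protein level, had 5.53 to 15.1 CPM, and a processed copy, Pcna-ps2, had 2.10 to 5.69 CPM. Reads of Pcna and of Tyms can be shared with such copies, so their levels are uncertain too.

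Across the 17 groups the summed level of the members ran from 961 ± 89.4 CPM (mean ± SD, n = 3) in D542G Basal with giredestrant to 3072 ± 855 CPM in D542G ML with vehicle. Of the 42 counted members, 21 had their highest mean in D542G ML with vehicle and 13 in D542G Basal with vehicle. The lowest mean was in D542G Basal with giredestrant for 19 members and in WT Basal with giredestrant for 11. The ratio of the highest to the lowest group mean was 31.3 for E2f2, 14.7 for the fork protein Clspn, 10.9 for the licensing factor Cdc6 and 10.5 for E2f8. It was least for Orc6 and Pcna, at 1.92 for each. Per kilobase of exon, the helicase subunits Mcm6 (91.0 CPM per kb), Mcm5 (60.3) and Mcm3 (49.6) were the most abundant members in D542G ML with vehicle, with the ribonucleotide reductase subunit Rrm2 next (48.6). Orc1 (0.358), Brca2 (0.805) and Clspn (1.06) were the least abundant on the same scale.

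**Figure D1:**
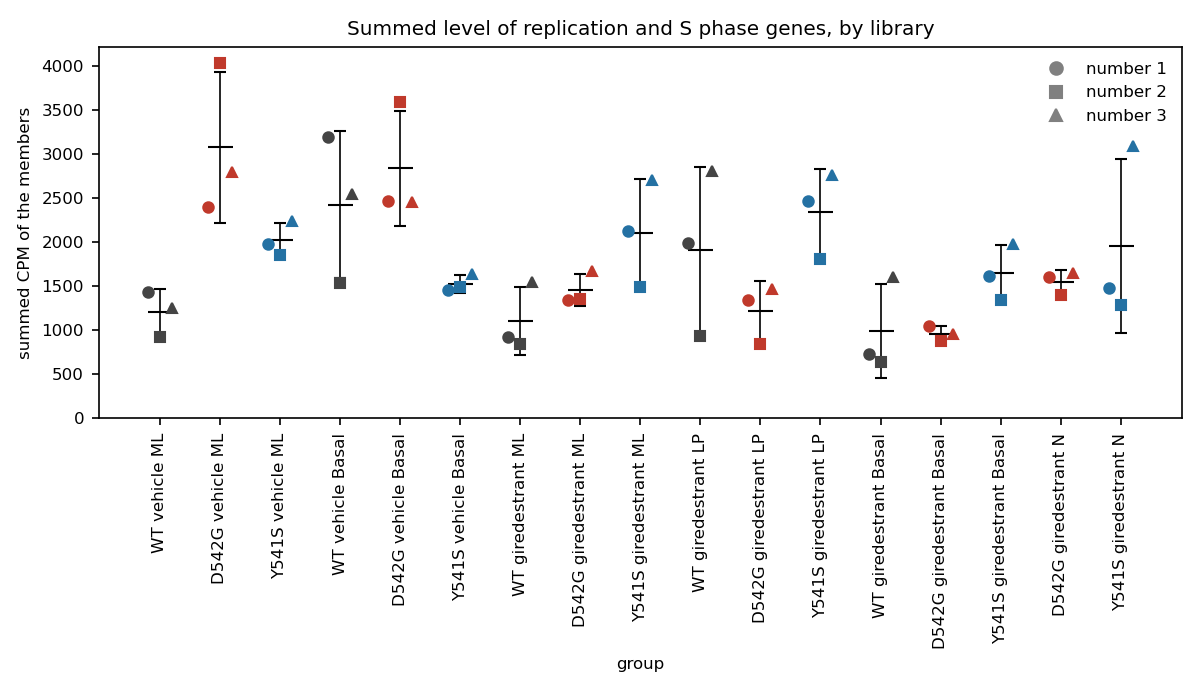
Summed level of the 42 counted members (CPM, TMM-scaled) in each of the 17 groups, with circles, squares and triangles for libraries numbered 1, 2 and 3 and bars for the mean ± SD. D542G ML and Basal libraries with vehicle lay between 2393 and 4032 CPM, and D542G Basal libraries with giredestrant lay between 874 and 1052 CPM.

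**Figure D2:**
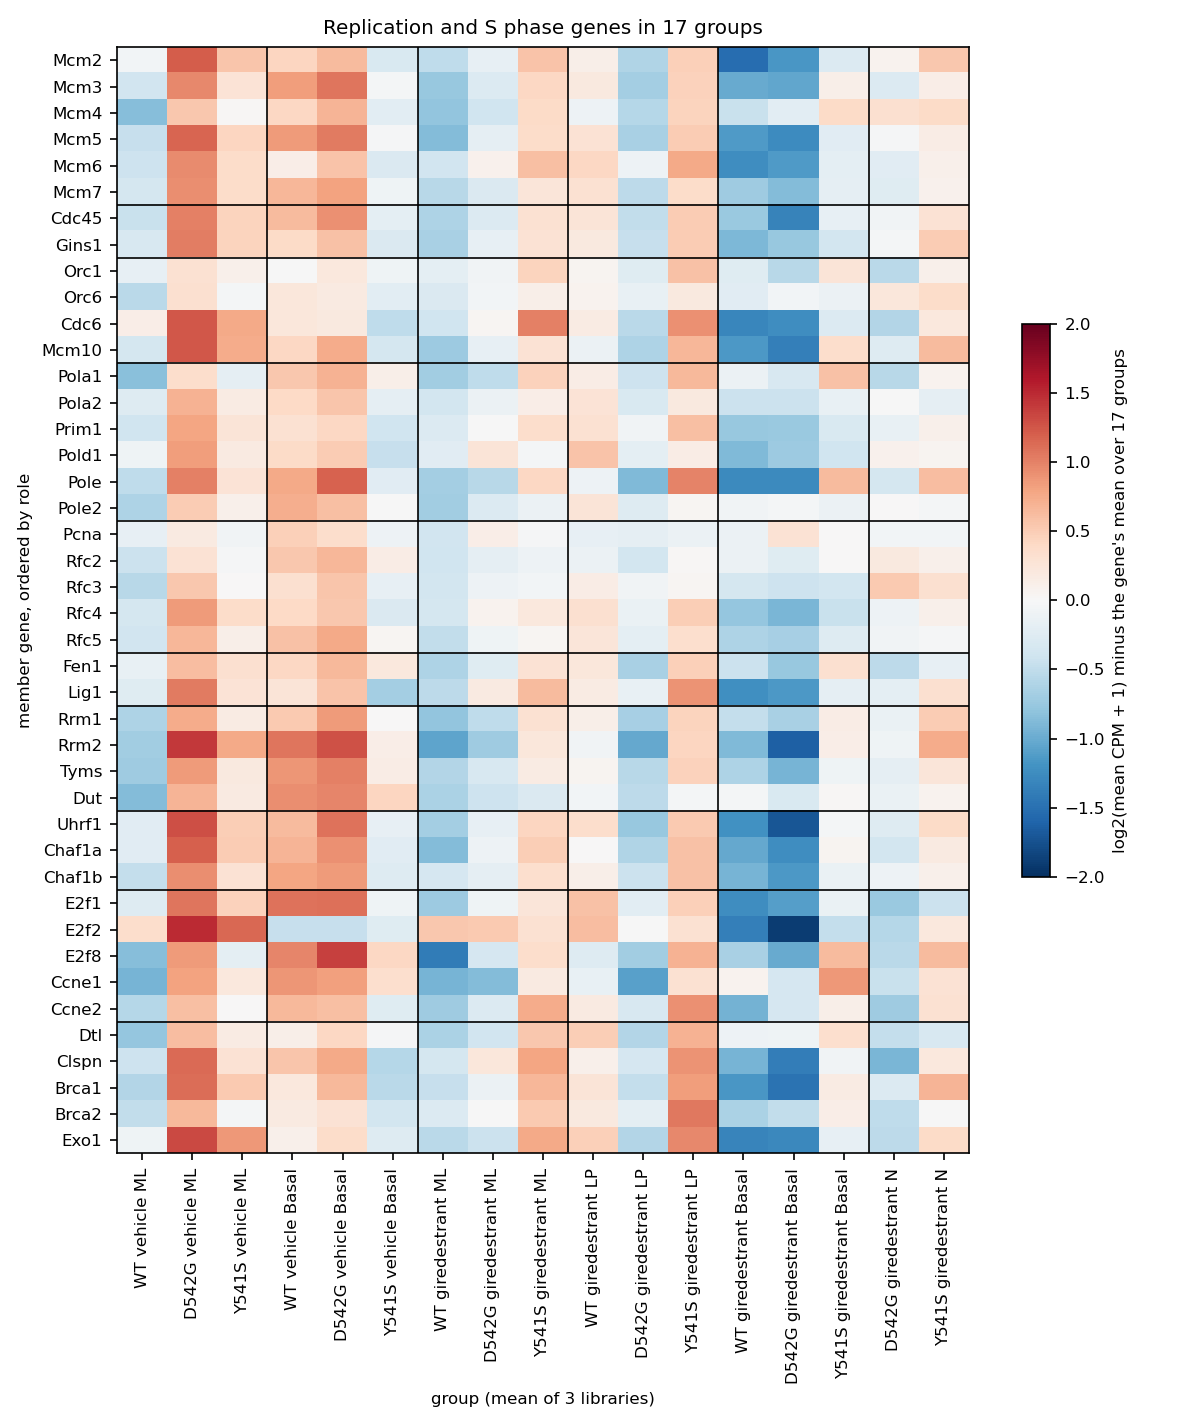
Mean level of each of the 42 counted members in the 17 groups, as log2(mean CPM + 1) minus the gene's own mean over the groups, with genes ordered by role. Most rows are high in D542G ML and Basal with vehicle and low in WT and D542G Basal with giredestrant, whereas the row of Pcna is nearly flat.

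The first question was whether the mutant receptors changed replication genes in ML cells that had hormone and no antagonist. In D542G ML, genes of every step of replication were higher than in WT. Of 42 members, 38 rose (edgeR quasi-likelihood test, adjusted p under 0.05), where 9.37% of all 17181 genes tested rose. The median log2 ratio of the members was 1.41, against 0.06 over all genes, and all 42 ratios were above 0. Summed over the members, D542G libraries 1, 2 and 3 held 2393, 4032 and 2790 CPM, and WT libraries held 1436, 924 and 1252 CPM. The groups did not overlap, and their means differed 2.55-fold. In bulk RNA, more cells in S phase and more replication RNA per cell cannot be told apart.

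All 6 subunits of the MCM helicase, the ring that unwinds DNA at the fork, rose in D542G ML. Mcm5 stood at 188, 323 and 212 CPM in D542G libraries 1, 2 and 3 and at 101, 49.2 and 84.1 CPM in WT. Its groups were apart, with library 2 highest in D542G and lowest in WT, and its log2 ratio was 1.67 ± 0.35 (± SE here and below, adjusted p = 0.00449). Mcm6 rose by 1.42 ± 0.24 (adjusted p = 0.00116) and Mcm4 by 1.45 ± 0.25 (adjusted p = 0.00114), with p-values adjusted over all genes tested. The helicase activators Cdc45 (1.59 ± 0.37, adjusted p = 0.00789) and Gins1 (1.52 ± 0.32, adjusted p = 0.00418) rose with them. Among licensing and firing factors, Mcm10, which binds the activated helicase, rose by 1.78 ± 0.46 (adjusted p = 0.013), Cdc6 by 1.32 ± 0.37 (adjusted p = 0.0193) and Orc6 by 0.94 ± 0.18 (adjusted p = 0.00268). The origin subunit Orc1, at 0.210 to 1.70 CPM in all ML libraries, did not pass (1.03, adjusted p = 0.259).

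The enzymes of DNA synthesis followed the same pattern, with all 6 polymerase and primase members called. Pola1, the catalytic subunit of the primase-bound polymerase, rose by 1.27 ± 0.22 (adjusted p = 0.00122), and Pole, which copies the leading strand, by 1.64 ± 0.46 (adjusted p = 0.0195). In the clamp and its loader 4 of 5 members rose, led by Rfc4 (1.29 ± 0.25, adjusted p = 0.00261) and Rfc3 (1.19 ± 0.18, adjusted p = 0.000665). Rfc3 had 29.7, 35.9 and 27.6 CPM in D542G and 15.0, 11.5 and 15.7 CPM in WT, and the groups were well apart. Pcna itself had 9.87, 11.0 and 11.0 CPM against 7.83, 8.49 and 8.11 CPM. Those libraries did not overlap either, but the log2 ratio of 0.42 did not pass (adjusted p = 0.173). Lig1, which seals Okazaki fragments, rose by 1.34 ± 0.31 (adjusted p = 0.00756), and Fen1, which trims them, had a ratio of 0.92 that did not pass (adjusted p = 0.0516).

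All 4 counted members of nucleotide supply rose in D542G ML. Rrm2, the regulated subunit of ribonucleotide reductase, had 67.0, 217 and 120 CPM in D542G and 36.4, 17.5 and 37.3 CPM in WT, with D542G library 2 far above the others. Its log2 ratio was 2.19 ± 0.64 (adjusted p = 0.0239). Dut, which removes dUTP, had 75.6, 113 and 81.3 CPM against 35.5, 22.2 and 32.4 CPM and rose by 1.63 ± 0.25 (adjusted p = 0.000691). The thymidylate synthase gene Tyms rose by 1.66 ± 0.31 (adjusted p = 0.00205). The factors that restore chromatin behind the fork also rose, with Uhrf1, which carries DNA methylation to the new strand, at 1.61 ± 0.43 (adjusted p = 0.0151) and the histone chaperone Chaf1b at 1.48 ± 0.30 (adjusted p = 0.00321).

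The regulators rose as well. E2f8, an E2F factor known as a repressor, had 8.29, 15.7 and 10.5 CPM in D542G and 3.37, 1.97 and 3.11 CPM in WT, without overlap, and rose by 2.07 ± 0.44 (adjusted p = 0.00448). The cyclin E genes Ccne1 (1.91 ± 0.43, adjusted p = 0.00619) and Ccne2 (1.5 ± 0.28, adjusted p = 0.00203) rose. E2f2 had a ratio of 1.31 that did not pass (adjusted p = 0.0545). All 5 genes of fork protection and repair rose, among them Clspn (1.99 ± 0.43, adjusted p = 0.00542), the recombination gene Brca1 (1.96 ± 0.41, adjusted p = 0.00432) and the nuclease gene Exo1 (1.56 ± 0.36, adjusted p = 0.00707). Leaving out any 1 of the 6 libraries left 27 to 38 members called, and 27 members were called in all 6 of those fits. The drop in mature luminal markers given above, and basal markers of 308 to 1286 CPM against 127 to 183 CPM in WT, moved with these differences. Whether the mix of cells had a part in them was not tested.

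**Figure D3:**
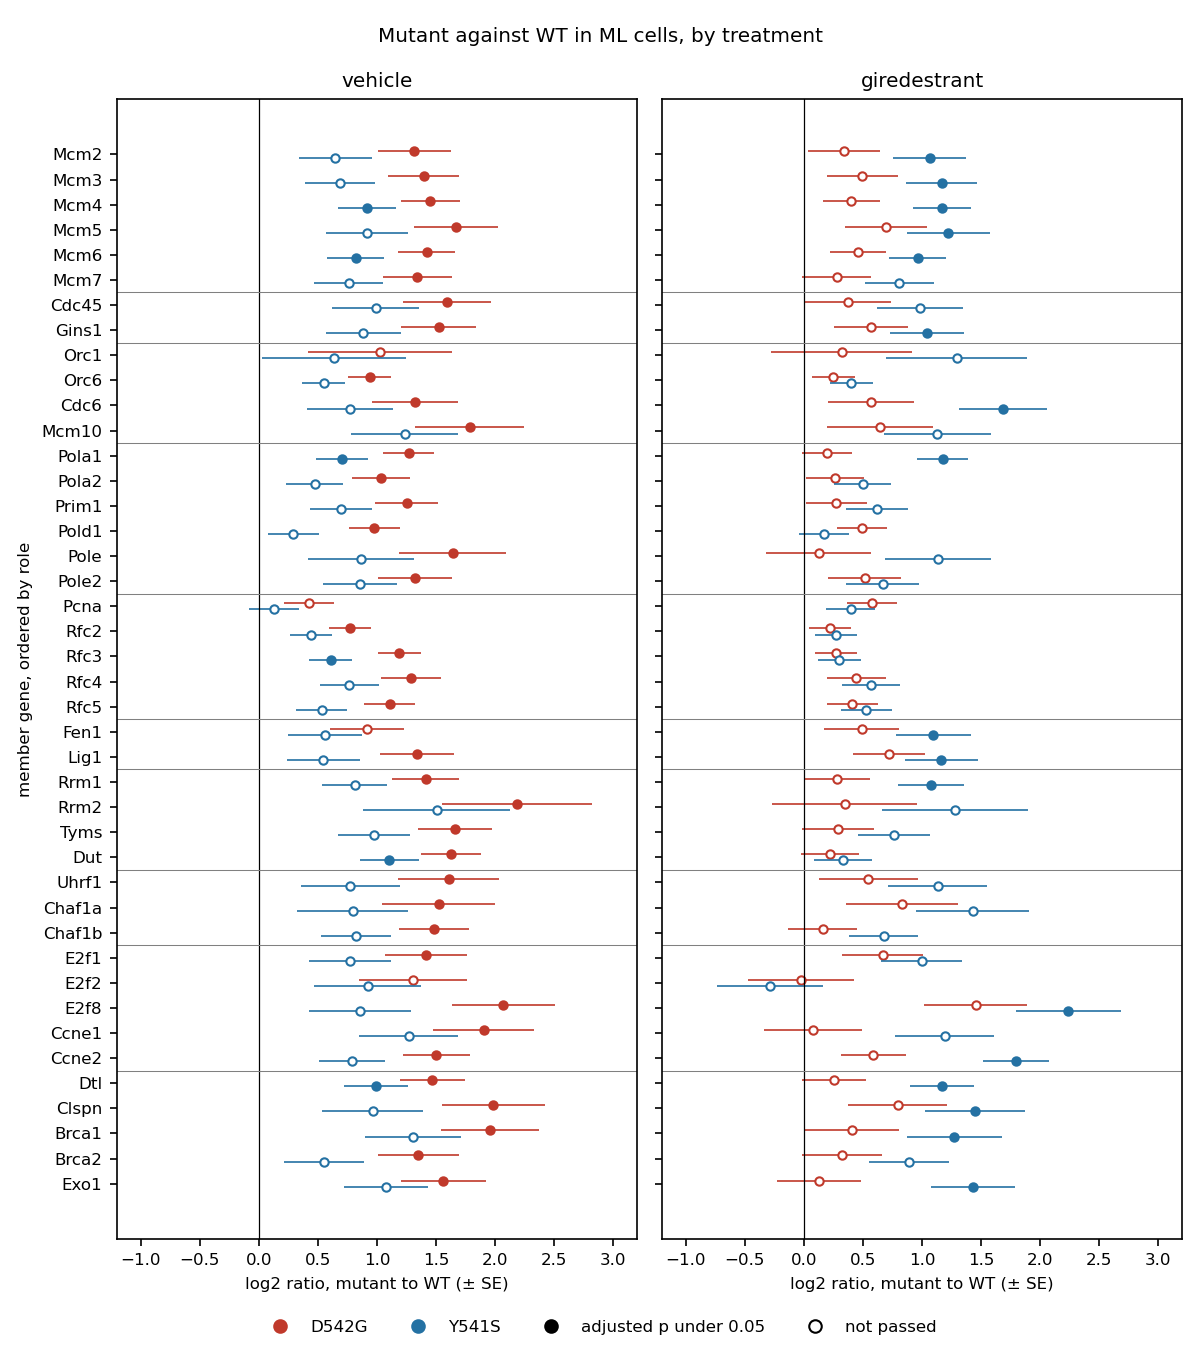
Log2 ratio of mutant to WT in ML cells for each tested member, D542G and Y541S, with vehicle in one panel and giredestrant in the other, ± SE, with filled points for adjusted p under 0.05. With vehicle 38 D542G points and 6 Y541S points are filled, and with giredestrant 0 D542G points and 17 Y541S points are filled.

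Promoters of some members are shown because E2F factors are known to bind short sites near the start of such genes. The windows are from RefSeq (GRCm38.p6) and span 250 bases before to 50 after each start, and 38 of the 45 members had one. The E2F site was searched in 4 forms on both strands, with overlapping matches allowed, TTTCCCGC, TTTCGCGC, TTTGCCGC and TTTGGCGC. At least 1 form was present in 17 of 38 members (44.7%), against 704 of all 27025 genes with a window (2.60%). That share is over all listed members with a window, called or not. The 17 include Cdt1, which had no counts, and Orc1 and E2f2, which were not called in D542G ML. Capitals mark the matches, which are letters in a window and not measured binding. All sequences run 5′ to 3′ along the gene's own strand.

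The first 5 windows have matches and are from called members, and the last, of Rrm2, has none although Rrm2 had the largest ratio in D542G ML. Mcm6 (chr1:128359656-128359955, minus strand) has 3 matches, 2 of which overlap, Mcm5 (chr8:75109259-75109558, plus strand) has 2 that overlap, and Mcm3 (chr1:20820263-20820562, minus strand) and Rfc3 (chr5:151651159-151651458, minus strand) have 2 each. Clspn (chr4:126556730-126557029, plus strand) has 1, and Rrm2 lies at chr12:24708004-24708303 on the plus strand.
Mcm6: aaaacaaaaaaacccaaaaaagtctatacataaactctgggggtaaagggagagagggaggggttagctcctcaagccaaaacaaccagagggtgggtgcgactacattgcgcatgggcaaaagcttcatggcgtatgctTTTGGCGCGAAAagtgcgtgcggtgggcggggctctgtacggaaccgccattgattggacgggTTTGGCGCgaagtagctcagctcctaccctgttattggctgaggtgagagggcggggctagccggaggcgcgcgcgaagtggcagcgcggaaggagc
Mcm5: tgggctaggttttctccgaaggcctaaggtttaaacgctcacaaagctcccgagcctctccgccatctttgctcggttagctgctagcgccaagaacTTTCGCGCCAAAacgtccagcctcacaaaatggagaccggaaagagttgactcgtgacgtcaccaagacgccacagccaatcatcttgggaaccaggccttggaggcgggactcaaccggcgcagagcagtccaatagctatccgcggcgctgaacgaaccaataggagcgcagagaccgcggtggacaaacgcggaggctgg
Mcm3: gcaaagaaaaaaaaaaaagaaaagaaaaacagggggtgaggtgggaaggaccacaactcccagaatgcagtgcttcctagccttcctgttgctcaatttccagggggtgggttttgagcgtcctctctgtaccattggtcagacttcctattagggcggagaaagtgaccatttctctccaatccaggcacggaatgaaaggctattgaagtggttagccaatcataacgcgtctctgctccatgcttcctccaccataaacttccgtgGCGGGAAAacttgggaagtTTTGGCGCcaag
Rfc3: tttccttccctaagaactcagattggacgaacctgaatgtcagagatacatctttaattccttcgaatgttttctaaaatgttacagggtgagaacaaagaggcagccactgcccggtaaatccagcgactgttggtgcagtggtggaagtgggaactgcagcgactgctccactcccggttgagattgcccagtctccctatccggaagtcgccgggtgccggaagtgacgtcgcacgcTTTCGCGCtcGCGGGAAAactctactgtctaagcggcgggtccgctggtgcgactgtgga
Clspn: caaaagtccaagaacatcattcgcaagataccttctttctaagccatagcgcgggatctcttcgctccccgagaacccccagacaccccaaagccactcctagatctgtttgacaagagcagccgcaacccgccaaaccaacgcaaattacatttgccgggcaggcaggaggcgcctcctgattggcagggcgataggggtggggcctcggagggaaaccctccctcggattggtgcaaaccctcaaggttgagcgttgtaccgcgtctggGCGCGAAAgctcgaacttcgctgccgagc
Rrm2: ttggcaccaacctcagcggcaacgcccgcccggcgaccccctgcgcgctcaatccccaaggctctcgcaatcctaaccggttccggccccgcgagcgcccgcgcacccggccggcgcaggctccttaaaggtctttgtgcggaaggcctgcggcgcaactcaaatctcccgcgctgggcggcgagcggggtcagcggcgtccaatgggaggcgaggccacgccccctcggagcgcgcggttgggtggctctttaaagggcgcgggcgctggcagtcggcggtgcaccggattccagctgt
The Rfc3 and Mcm3 matches begin within 50 bases of the start, from position -10 to 39, and the Mcm5 matches lie farther up, at -153 and -149. Of 23 matches in member windows, 14 began within 100 bases before to 50 after the start. The same forms were found in 9 of 35 other replication genes (25.7%) and in 1 of 26 mitosis genes (3.85%). The motif TTTGAA, known from promoters of mitotic genes, was in 5 of 38 members (13.2%), in 20 of 26 mitosis genes (76.9%) and in 20.2% of all genes, and CCAAT was in 57.9%, 80.8% and 41.1%.

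In Y541S ML with vehicle the members were also above WT, by less. Of 42 members 6 rose, where 4.79% of all genes rose: Mcm4 (0.92 ± 0.24, adjusted p = 0.0261), Mcm6 (0.82 ± 0.24, adjusted p = 0.0397), Pola1 (0.70 ± 0.22, adjusted p = 0.0483), Rfc3 (0.61 ± 0.18, adjusted p = 0.0443), Dut (1.10 ± 0.25, adjusted p = 0.0126) and Dtl (0.99 ± 0.27, adjusted p = 0.031), which marks Cdt1 for destruction. All 42 ratios were above 0, with a median of 0.79, and 28 had an unadjusted p under 0.05. DESeq2 called 15. Dut had 63.5, 63.0 and 63.6 CPM in Y541S libraries against 35.5, 22.2 and 32.4 CPM in WT, 3 nearly equal values well above the WT range. The summed level was 1976, 1851 and 2238 CPM, 1.68 times the WT mean and without overlap. No member was called in the fit without WT vehicle ML library 2, and 1 was called without WT library 3 or without any 1 Y541S library. Basal markers in Y541S ML were 527 to 2245 CPM, and their part in the result was not tested.

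Between the mutants with vehicle no member passed in ML with edgeR or with DESeq2, where 0.0175% of all genes did. All 42 ratios of Y541S to D542G were below 0, with a median of -0.60, and 20 had an unadjusted p under 0.05. The summed levels did not overlap, at 1851 to 2238 CPM in Y541S and 2393 to 4032 CPM in D542G.

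The second question was what giredestrant did to these genes in each genotype. In D542G ML the members fell, and in WT and Y541S ML they did not as a group. In D542G, 31 of 42 fell, where 11.3% of all genes fell, with a median log2 ratio of -1.10 against 0.05 over all genes. Summed levels were 1344, 1357 and 1670 CPM with giredestrant and 2393, 4032 and 2790 CPM with vehicle, apart by 2.11-fold in their means. WT ML with vehicle held 924 to 1436 CPM, a range that the treated D542G libraries overlapped.

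All 6 helicase subunits fell in D542G ML. Mcm2 had 82.7, 76.3 and 93.2 CPM with giredestrant against 171, 295 and 193 CPM with vehicle and fell by 1.39 on the log2 scale (SE 0.31, adjusted p = 0.00784). Mcm5 went from 188, 323 and 212 CPM to 79.6, 84.3 and 121 CPM, and it fell by 1.34 (SE 0.35, adjusted p = 0.016). Neither gene's groups overlapped, and vehicle library 2 was the highest for both. Exo1 fell by 1.93 (SE 0.36, adjusted p = 0.00335), Rrm2 by 2.17 (SE 0.63, adjusted p = 0.0258), Ccne1 by 1.79 (SE 0.42, adjusted p = 0.00995), Pole by 1.65 (SE 0.45, adjusted p = 0.02) and Rrm1, the large subunit of ribonucleotide reductase, by 1.26 (SE 0.28, adjusted p = 0.00769). Exo1 had 4.72, 5.31 and 6.6 CPM with giredestrant, below all 3 vehicle libraries (13.3, 30.7 and 19.4 CPM). The 11 members that did not pass were Orc1, Orc6, Pold1, Pole2, Pcna, Rfc2, Lig1, Chaf1a, E2f2, Clspn and Brca2, with ratios from -0.06 for Pcna to -1.34 for Chaf1a.

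The count in D542G ML rests on single libraries. It was 3 without vehicle library 2, 11 without giredestrant library 2 and 17 without giredestrant library 1. Mcm2, Exo1 and Dut were called in all 6 fits that left out 1 library. Progenitor markers moved with the treatment, from 6280 to 9260 CPM with vehicle to 13220 to 22255 CPM with giredestrant, and whether a shift in cell mix had a part was not tested.

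In WT ML, giredestrant changed no member by edgeR, and DESeq2 called 0 too, although 34.1% of all genes passed in either direction. No member had an unadjusted p under 0.05, and the median ratio was -0.09. Summed levels were 924, 840 and 1547 CPM with giredestrant and 1436, 924 and 1252 CPM with vehicle, which overlap, with giredestrant library 3 highest of all 6. Without that library 7 members fell. Mature luminal markers in WT ML were lower with giredestrant, at 2799 to 4986 CPM against 5127 to 6005 CPM with vehicle, without overlap. Whether a change in cell mix had a part was not tested. In Y541S ML, 2 of 42 members rose, Pola1 (0.66 ± 0.21, adjusted p = 0.0357) and Ccne2 (0.86 ± 0.27, adjusted p = 0.0317), where 12% of all genes rose, and the median ratio was -0.03. Ccne2 had 7.42, 6.14 and 10.2 CPM with giredestrant against 5.44, 3.59 and 4.0 CPM with vehicle, without overlap. Neither call held in all 6 fits with 1 library left out. The fits without Y541S vehicle library 2 or 3, or giredestrant library 1 or 3, called none, and the fit without vehicle library 1 called 1.

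A direct test of the difference between genotypes was run for each mutant against WT. The effect of giredestrant in ML was more negative in D542G than in WT for 3 members, Pola1 (-1.07 ± 0.30, adjusted p = 0.047), Rfc3 (-0.92 ± 0.26, adjusted p = 0.0442) and Dut (-1.41 ± 0.35, adjusted p = 0.0272), where 2.39% of all genes were. Of the 42 differences 41 were below 0, with a median of -0.98, 26 had an unadjusted p under 0.05, and DESeq2 called 9. With vehicle 38 of 42 members were already higher in D542G ML than in WT ML, with a median of 1.41. With giredestrant that median was 0.39. The difference of effects includes the higher vehicle level, and the part of cell mix in it was not tested. Dut fell from 75.6, 113 and 81.3 CPM to 35.1, 37.7 and 51.8 CPM in D542G, whereas WT had 35.5, 22.2 and 32.4 CPM with vehicle and 31.0, 29.0 and 47.1 CPM with giredestrant. No member was called without WT vehicle library 2, D542G vehicle library 2, WT giredestrant library 3 or D542G giredestrant library 1 or 2. One was called without WT vehicle library 3, D542G vehicle library 3 or WT giredestrant library 1, and 8 without WT giredestrant library 2. For Y541S against WT no difference passed with edgeR or DESeq2, where 5.79% of all genes did, and 3 members had an unadjusted p under 0.05. Without WT giredestrant library 3, 1 member was called. The difference in drug effect between the mutants was not tested.

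**Figure D4:**
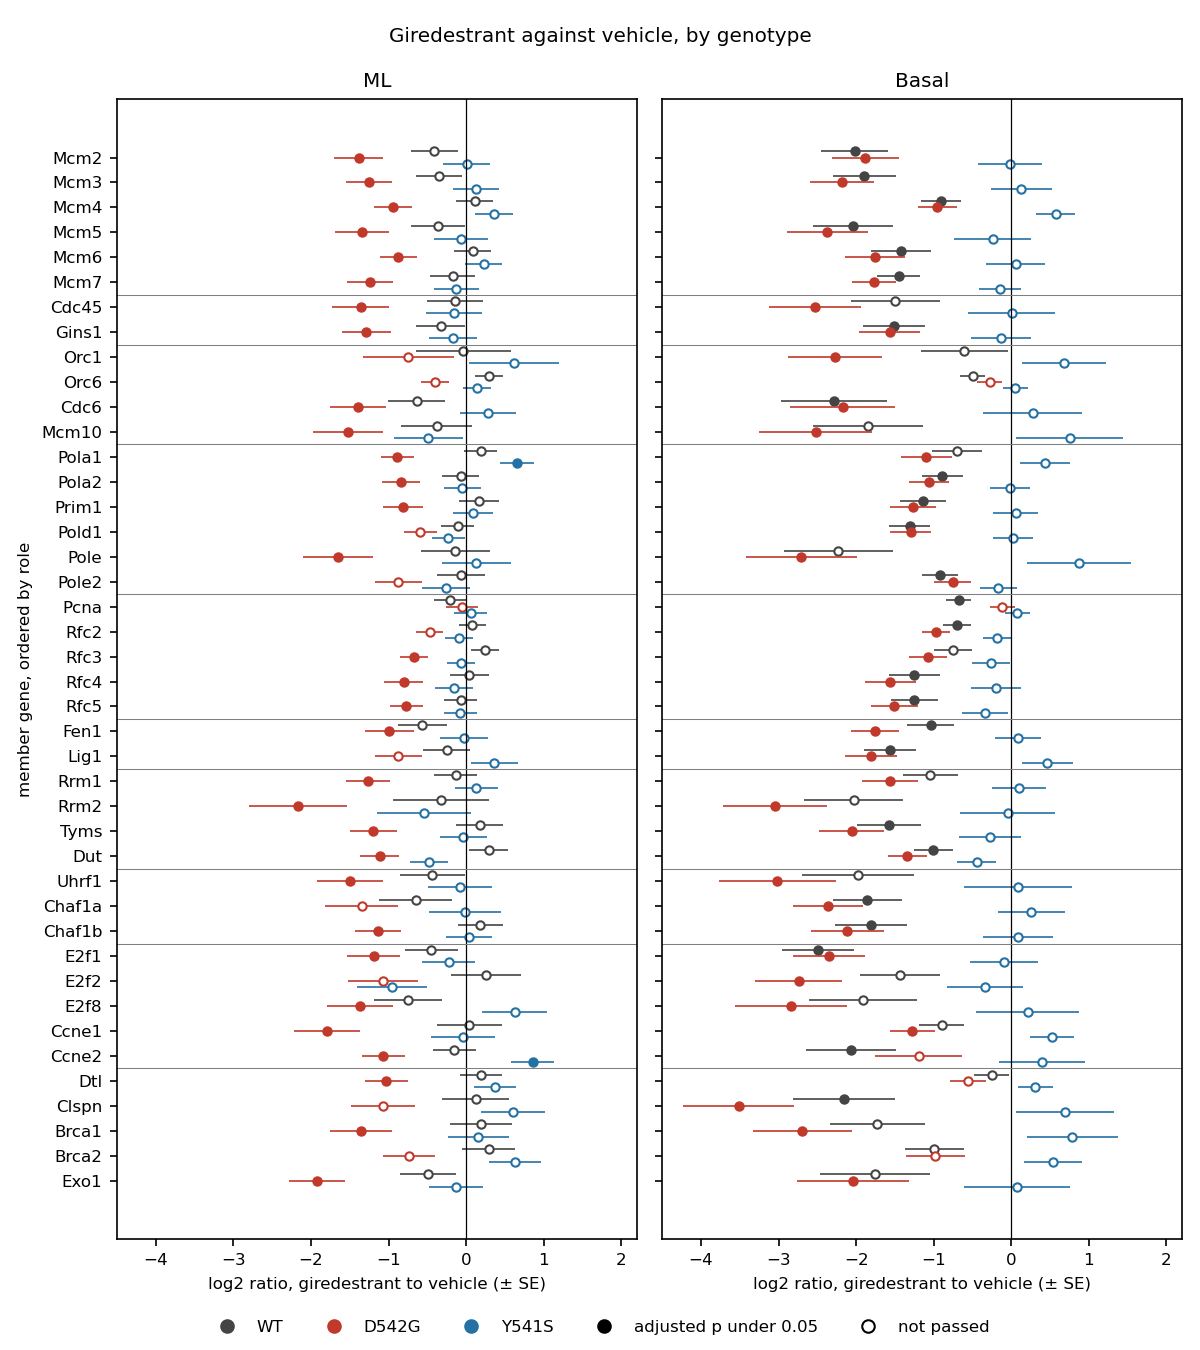
Log2 ratio of giredestrant to vehicle for each tested member in ML and in Basal cells of WT, D542G and Y541S mice, ± SE, with filled points for adjusted p under 0.05. Filled points lie below 0 for 31 members in D542G ML, 25 in WT Basal and 37 in D542G Basal, and Y541S points lie around 0 in both populations.

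In Basal cells giredestrant lowered replication genes in both WT and D542G. In D542G Basal 37 of 42 members fell, where 15.6% of all genes fell, with a median of -1.76 against 0.00 over all genes. In WT Basal 25 fell, where 6.53% of all genes fell, with a median of -1.44. In Y541S Basal none passed with edgeR or DESeq2, where 15.1% of all genes passed in either direction. One member there had an unadjusted p under 0.05, and the median was 0.07.

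D542G Basal libraries held 2462, 3587 and 2454 CPM of the members with vehicle and 1052, 874 and 957 CPM with giredestrant, 2.95-fold apart in their means. Clspn, which signals from stalled forks, had 3.06, 7.0 and 6.89 CPM with vehicle and 0.780, 0.380 and 0.395 CPM with giredestrant, and it fell by 3.51 on the log2 scale (SE 0.71, adjusted p = 0.00324). Rrm2 had 79.0, 176 and 109 CPM with vehicle and 19.9, 15.2 and 11.0 CPM with giredestrant, and it fell by 3.04 (SE 0.67, adjusted p = 0.00479). Treated libraries were below every vehicle library for both genes. Uhrf1 fell by 3.02 (SE 0.75, adjusted p = 0.00917), Pole by 2.71 (SE 0.71, adjusted p = 0.0119), Cdc45 by 2.53 (SE 0.59, adjusted p = 0.00671) and Mcm5 by 2.37 (SE 0.52, adjusted p = 0.00477). All 3 E2F members fell, E2f8 by 2.84 (SE 0.72, adjusted p = 0.00999), E2f2 by 2.74 (SE 0.56, adjusted p = 0.00329) and E2f1, an activating E2F, by 2.35 (SE 0.46, adjusted p = 0.00278). Fen1 fell by 1.75 (SE 0.31, adjusted p = 0.00169). Orc6, Pcna, Ccne2, Dtl and Brca2 did not pass, with ratios from -0.11 for Pcna to -1.2 for Ccne2. Leaving out 1 library gave 30 to 37 called members, and 30 were called in all 6 fits.

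Markers of several other cell types were higher in D542G Basal with giredestrant than with vehicle. Mature luminal markers were 312 to 829 CPM against 150 to 282, pan-luminal markers 2544 to 4661 against 1074 to 2016, and immune markers 655 on average against 382 (without overlap). Endothelial markers were 236 to 429 CPM against 100 to 132, and pericyte markers 234 to 387 against 87 to 172. Fibroblast markers had a lower mean, at 804 against 1212 CPM, with overlapping ranges. The basal markers overlapped, at 25667 to 41505 and 20822 to 28783 CPM. Their part in the fall of the members was not tested.

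In WT Basal, E2f1 had 61.8, 35.6 and 47.7 CPM with vehicle and 5.07, 2.90 and 18.2 CPM with giredestrant. Library 3 was the highest of the treated libraries and still below every vehicle library, and E2f1 fell by 2.49 (SE 0.46, adjusted p = 0.00677). Mcm5 had 263, 110 and 210 CPM against 24.4, 15.6 and 104 CPM and fell by 2.04 (SE 0.51, adjusted p = 0.0222). All 6 helicase genes fell, and so did Pold1, the lagging-strand polymerase (1.31, SE 0.26, adjusted p = 0.00831), Lig1 (1.56, SE 0.34, adjusted p = 0.0115), Cdc6 (2.28, SE 0.68, adjusted p = 0.0421), Chaf1a (1.85, SE 0.45, adjusted p = 0.0184) and Clspn (2.16, SE 0.66, adjusted p = 0.0454). Of the 17 members that did not pass, all with ratios below 0, Pole (-2.23, adjusted p = 0.0506) and Rrm2 (-2.03, adjusted p = 0.0513) had the most negative. Every marker list overlapped between the treated and vehicle libraries of WT Basal.

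Library 3 of the treated WT Basal group stood apart, with a summed level of 1605 CPM against 735 and 636 CPM in libraries 1 and 2, and it overlapped the vehicle range of 1536 to 3190 CPM. Without it 38 members fell, and the share of all genes that fell in that fit is not given here. The count was 3 without vehicle library 1 or giredestrant library 1, 5 without giredestrant library 2 and 8 without vehicle library 3. E2f1, Mcm7 and Pold1 were called in all 6 fits.

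The effect in Basal cells was higher in Y541S than in WT for 4 members, where 2.75% of all genes were: Mcm4 (1.48 ± 0.36, adjusted p = 0.0288), Pold1 (1.33 ± 0.37, adjusted p = 0.0493), Lig1 (2.02 ± 0.47, adjusted p = 0.0247) and E2f1 (2.39 ± 0.63, adjusted p = 0.0407). All 42 differences were above 0, with a median of 1.45, 33 had an unadjusted p under 0.05, and DESeq2 called 18. With vehicle 41 of 42 members were already lower in Y541S Basal than in WT Basal, with a median of -0.78. Mean summed levels with vehicle were 1528 CPM in Y541S and 2423 CPM in WT. The difference of effects includes that lower vehicle level. E2f1 in Y541S Basal had 16.8, 21.4 and 24.2 CPM with vehicle and 19.3, 16.1 and 24.6 CPM with giredestrant, which overlap. The count was 32 without WT giredestrant library 3, 8 without WT vehicle library 2, 2 without WT vehicle library 3 or Y541S giredestrant library 2 and 1 without WT giredestrant library 2, Y541S vehicle library 3 or Y541S giredestrant library 3. It was 0 without library 1 of any of these groups and without Y541S vehicle library 2. Between D542G and WT no difference passed in Basal cells with edgeR or DESeq2, where 0.629% of all genes did. One member had an unadjusted p under 0.05.

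**Figure D5:**
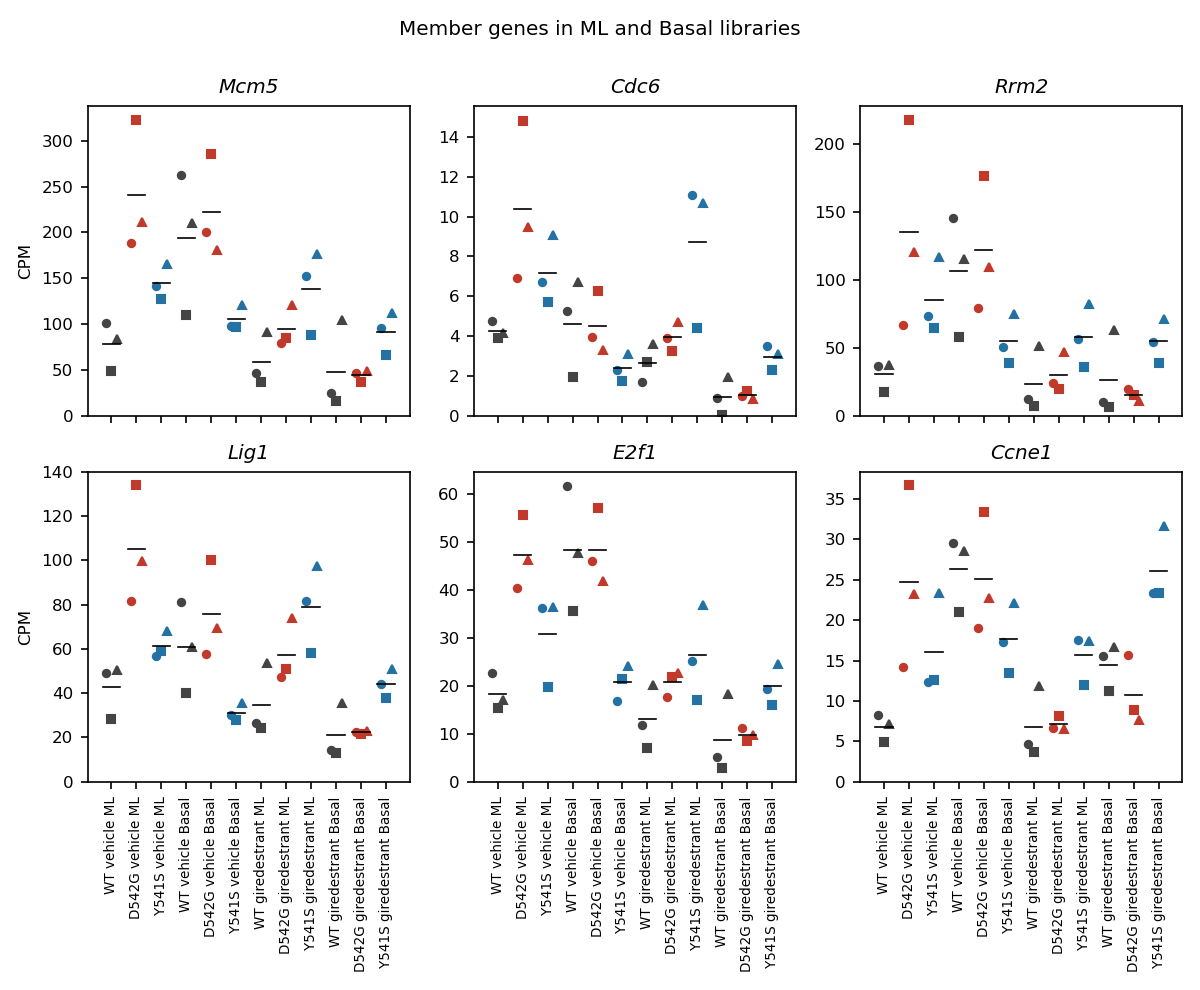
CPM of Mcm5, Cdc6, Rrm2, Lig1, E2f1 and Ccne1 in each ML and Basal library by genotype and treatment, with black bars for group means. Mcm5 in Basal cells spans 110 to 263 CPM in WT with vehicle and 15.6 to 104 CPM with giredestrant, and 96.5 to 121 and 66.7 to 113 CPM in Y541S.

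With giredestrant in all groups, replication genes were higher in Y541S ML than in WT ML. Of 42 members 17 rose, where 8.38% of all genes rose, the median ratio was 1.07, 34 had an unadjusted p under 0.05, and DESeq2 called 26. Among helicase subunits 5 of 6 rose, with Mcm4 at 1.17 ± 0.25 (adjusted p = 0.00756) and Mcm5 at 1.22 ± 0.35 (adjusted p = 0.03). E2f8 had 8.36, 7.59 and 7.37 CPM in Y541S and 1.34, 0.480 and 3.00 CPM in WT, and Ccne2 had 7.42, 6.14 and 10.2 CPM against 1.61, 2.64 and 2.49 CPM. Neither gene's groups overlapped, and the log2 ratios were 2.24 ± 0.44 (adjusted p = 0.00589) and 1.80 ± 0.28 (adjusted p = 0.00202). Cdc6 rose by 1.68 ± 0.37 (adjusted p = 0.00921), Pola1 by 1.17 ± 0.22 (adjusted p = 0.00426), Lig1 by 1.16 ± 0.31 (adjusted p = 0.0219) and Exo1 by 1.43 ± 0.36 (adjusted p = 0.0164). No clamp, clamp loader or chromatin member was called.

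Summed levels in that comparison overlapped, at 2124, 1490 and 2701 CPM in Y541S and 924, 840 and 1547 CPM in WT. The count was 32 without WT library 3, 8 without Y541S library 3, 6 without WT library 1 or Y541S library 1 and 5 without WT library 2. Mcm4, Cdc6, Pola1, E2f8 and Ccne2 were called in all 6 fits. Basal markers were 1185 to 1982 CPM in Y541S and 140 to 463 CPM in WT, and mature luminal markers 1586 to 2191 and 2799 to 4986 CPM. Their part in the result was not tested.

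D542G ML with giredestrant did not differ from WT at the threshold, with 0 members called by edgeR, 5 at an unadjusted p under 0.05 and 1 by DESeq2, where 2.6% of all genes passed. The median ratio was 0.39, and without WT library 3, 1 member was called. Y541S exceeded D542G for 4 members, where 4.94% of all genes did: Pola1 (0.98 ± 0.22, adjusted p = 0.0162), Ccne2 (1.21 ± 0.27, adjusted p = 0.0176), Exo1 (1.31 ± 0.36, adjusted p = 0.0348) and Dtl (0.92 ± 0.27, adjusted p = 0.0457). Exo1 had 15.7, 9.97 and 16.1 CPM in Y541S and 4.72, 5.31 and 6.6 CPM in D542G, without overlap. The fits without D542G library 2 or Y541S library 1 called none, and those without D542G library 1 or 3 or Y541S library 3 called 2.

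In Basal cells the genotypes differed little in members called. With vehicle no member passed for D542G against WT, where 0.0582% of all genes did, or for Y541S against WT, where 0.157% did. Unadjusted p-values under 0.05 numbered 0 and 19, and DESeq2 called 0 and 3 lower in Y541S. The medians were 0.18 and -0.78, and 41 of 42 ratios of Y541S to WT were below 0. Y541S Basal libraries, at 1454 to 1643 CPM, overlapped the WT range of 1536 to 3190 CPM. With giredestrant Mcm4 alone rose in Y541S (0.80 ± 0.25, adjusted p = 0.0457), where 7.59% of all genes rose. Mcm4 had 135, 108 and 150 CPM in Y541S and 61.3, 68.6 and 88.2 CPM in WT, without overlap. Another 15 members had an unadjusted p under 0.05 and DESeq2 called 11. Without WT library 3 the count was 30, and without WT library 1 or 2 or Y541S library 1 or 3 it was 0. D542G with giredestrant had no member called with edgeR or DESeq2, 2 at an unadjusted p under 0.05, where 4.97% of all genes passed, and 3 without WT library 3.

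LP cells were sampled with giredestrant in all genotypes. No member passed for D542G against WT with edgeR or DESeq2, where 0.0302% of all genes did, and 3 had an unadjusted p under 0.05. Of the 42 ratios of D542G to WT, 41 were below 0, with a median of -0.63. For Y541S against WT edgeR called none and DESeq2 called 1, where 3.54% of all genes passed with edgeR, and 2 had an unadjusted p under 0.05. Of the 42 ratios of Y541S to WT, 36 were above 0, with a median of 0.32. The higher fibroblast markers of Y541S LP, given above, moved with this comparison, and their part was not tested. Summed levels were 1993, 939 and 2801 CPM in WT, 1346, 841 and 1471 CPM in D542G and 2465, 1808 and 2756 CPM in Y541S. The WT libraries spanned the widest range, library 3 holding the most and library 2 the least, and both mutants overlapped them.

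Across populations, WT mice with vehicle had lower replication genes in ML than in Basal cells. Of 42 members 33 were lower in ML, where 29.2% of all 17232 genes were, and the median log2 ratio was -1.0 against -0.08 over all genes. Dut had 35.5, 22.2 and 32.4 CPM in ML and 138, 81.7 and 101 CPM in Basal, far apart, at -1.88 ± 0.22 (adjusted p = 2.82e-06). Tyms (-1.69 ± 0.27, adjusted p = 5.66e-05), E2f8 (-2.21 ± 0.35, adjusted p = 5.35e-05), Ccne1 (-2.01 ± 0.35, adjusted p = 0.000161), Mcm5 (-1.37 ± 0.31, adjusted p = 0.0014) and Pola1 (-1.46 ± 0.27, adjusted p = 0.000246) were lower too. E2f2 was the 1 member higher in ML, with 7.70, 3.5 and 6.63 CPM against 3.2, 1.47 and 4.24 CPM. These ranges overlap, and its log2 ratio was 0.95 ± 0.39 (adjusted p = 0.0487). Cdc6 had 4.77, 3.89 and 4.18 CPM in ML and 5.24, 1.92 and 6.69 CPM in Basal, with no difference past the threshold (-0.16, adjusted p = 0.749). Summed levels did not overlap, at 924 to 1436 CPM in ML and 1536 to 3190 CPM in Basal.

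That order was not seen in the mutants, and in Y541S the summed levels had the opposite order. The change between genotypes was not tested as such. In D542G 3 members were higher in ML, Cdc6 (1.17 ± 0.40, adjusted p = 0.025), E2f2 (2.24 ± 0.40, adjusted p = 0.00024) and Exo1 (0.98 ± 0.37, adjusted p = 0.0411), and Rfc2 was lower (-0.43 ± 0.15, adjusted p = 0.0343), where 43.7% of all genes differed. With the replicate number as a block, 7 were higher and 4 lower, where 22% and 24.6% of all genes were. Without ML library 2 or 3, or without Basal library 3, 2 were called. In Y541S 12 were higher in ML, where 25.2% of all genes were, and the median was 0.42. They included Cdc6 (1.54 ± 0.41, adjusted p = 0.00475), Lig1 (0.93 ± 0.27, adjusted p = 0.00972), Gins1 (0.78 ± 0.24, adjusted p = 0.0125), E2f2 (1.58 ± 0.39, adjusted p = 0.00289) and Exo1 (1.20 ± 0.37, adjusted p = 0.0135), the 5 called in every fit that left out 1 library. With the block, 22 were higher and 3 lower, where 26.3% and 27.5% of all genes were. Same-numbered ML and Basal libraries deviated together in both mutants, with correlations of 0.149 to 0.180 in D542G and 0.146 to 0.161 in Y541S. Summed levels in Y541S did not overlap, at 1851 to 2238 CPM in ML and 1454 to 1643 CPM in Basal. Without the block the count was 6 in the fit that left out Basal library 2 and 5 in that without ML library 3.

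In WT mice with giredestrant 6 members were higher in LP than in Basal cells, where 18.7% of all 16555 genes were. They were E2f2 (2.69 ± 0.63, adjusted p = 0.00792), Mcm6 (1.66 ± 0.47, adjusted p = 0.02), Mcm2 (1.67 ± 0.59, adjusted p = 0.0499), Pold1 (1.47 ± 0.36, adjusted p = 0.0105), Lig1 (1.43 ± 0.50, adjusted p = 0.0476) and Brca2 (0.97 ± 0.32, adjusted p = 0.0395), a partner of recombination at broken forks. The count was 2 without LP library 1 or 3 or Basal library 1 or 2, 14 without LP library 2 and 22 without Basal library 3. With the replicate number as a block 30 were higher in LP, where 23.1% of all genes were, so this count turns on whether the numbers pair the libraries. Same-numbered LP and Basal libraries deviated together with correlations of 0.032 to 0.272, which left the pairing unsettled. Between LP and ML none passed with edgeR or DESeq2, where 0.0664% of all genes did, and 4 had an unadjusted p under 0.05. Only 11 of 16555 genes differed in that fit, so it separated LP from ML for few genes of any kind. WT ML and LP libraries still did not overlap on mature luminal markers (2799 to 4986 and 1007 to 2117 CPM). Nor did they overlap on progenitor markers (5902 to 15266 and 16514 to 16703 CPM). The block gave 2 higher in LP, where 1.08% of all genes were. Between ML and Basal, 1 member, E2f2, was higher in ML (2.61 ± 0.63, adjusted p = 0.0084), where 20.5% of all genes were, and without Basal library 3 the count was 9. The block gave 10 higher and 3 lower in ML, where 24% and 23.6% of all genes were, with same-number correlations of 0.097 to 0.221.

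N cells of the 2 mutants were compared with the other populations of both mutants under giredestrant. Against Basal, 18 of 42 members were higher in N, where 22.1% of all 18247 genes were. Mcm2 (1.05 ± 0.26, adjusted p = 0.00262), Rrm2 (1.11 ± 0.31, adjusted p = 0.00702), Rfc3 (0.85 ± 0.14, adjusted p = 6.48e-05), Brca1 (1.08 ± 0.28, adjusted p = 0.00372) and E2f2 (1.71 ± 0.38, adjusted p = 0.00109) were among them. Rfc3 had 32.5, 26.3 and 32.8 CPM in D542G N and 22.4, 24.2 and 32.8 CPM in Y541S N, all above the 13.1 to 18.4 CPM of the mutants' Basal libraries with giredestrant. Against ML, Rfc3 was higher (0.52 ± 0.14, adjusted p = 0.00788) and Cdc6 (-0.89 ± 0.29, adjusted p = 0.0231), E2f1 (-0.70 ± 0.24, adjusted p = 0.0326) and Clspn (-1.21 ± 0.43, adjusted p = 0.0388) were lower, where 29.9% of all genes differed. Against LP, Rfc3 was higher (0.45 ± 0.14, adjusted p = 0.0163) and E2f1 lower (-0.76 ± 0.24, adjusted p = 0.018), where 36.4% of all genes differed. With the block, 4 were higher and 8 lower against ML, where 18.7% and 17% of all genes were, and 5 and 9 against LP, where 21.8% and 20.4% were. Numbers paired the N libraries by the correlation criterion in Y541S and not in D542G.

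Library 3 of Y541S N stood apart from the other N libraries, with a summed level of 3090 CPM against 1480 and 1290 CPM in Y541S libraries 1 and 2 and 1397 to 1643 CPM in D542G. Without it, 12 members were lower and 1 higher in N than in ML, and 14 were lower than in LP. The count against ML was 1 without D542G N library 2 or D542G ML library 3, and 2 without D542G N library 1 or 3, D542G ML library 2, Y541S N library 1 or 2, or Y541S ML library 1 or 3. The count against LP was 1 without Y541S LP library 2. Between the mutants' N cells E2f8 alone was higher in Y541S (1.38 ± 0.36, adjusted p = 0.0232), where 4.13% of all genes were. Its values were 11.4, 3.67 and 14.1 CPM in Y541S and 3.24, 3.60 and 4.39 CPM in D542G, which overlap. No member was called without Y541S N library 3 or any 1 D542G N library, and 2 and 3 were called without Y541S N libraries 1 and 2. Basal markers of 16718 to 19859 CPM in D542G N and 6144 to 10181 CPM in Y541S N moved with that comparison, and their part was not tested.

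Members did not all move alike over the 51 libraries. The correlation of a member's log2 level with the mean of the others, given as a description over libraries that share groups and depth, was 0.98 for Mcm3, Cdc45 and Mcm5. It was 0.43 for Pcna and 0.60 for E2f2, and next came Ccne1 at 0.71 and Orc6 and Brca2 at 0.72. E2f2 was the 1 member called higher in ML than in Basal in all 4 such comparisons of 1 genotype. Other members were called higher in ML too in D542G and Y541S with vehicle. In WT with vehicle the E2f2 libraries overlapped. Within groups, library 3 had the highest summed level in all 3 WT giredestrant groups, in all 4 Y541S giredestrant groups and in D542G ML, LP and N with giredestrant. Library 2 was highest in D542G ML and Basal with vehicle. The sources used here do not say whether libraries of 1 number share an animal or a day.

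Other genes of the cell cycle were counted from lists of 44 further replication genes, 30 mitosis genes, 10 genes of pocket proteins and other E2F factors, and 12 G1 cyclins and CDK inhibitors. In D542G ML with vehicle 29 replication genes rose and 1 fell against WT, where 9.37% of all genes rose. Among those that rose were the replisome gene Wdhd1 (2.01 ± 0.44, adjusted p = 0.00546) and Ccna2 (1.76 ± 0.42, adjusted p = 0.00817), the S phase cyclin. Of the mitosis genes 28 rose, with a median of 1.88, led by the kinase gene Plk1 (2.36 ± 0.61, adjusted p = 0.0137) and Ccnb2 (2.23 ± 0.39, adjusted p = 0.00143). Mki67, a mark of cycling cells, had 13.8, 17.4 and 12.3 CPM against 7.39, 2.98 and 4.67 CPM in WT, without overlap (1.58 ± 0.46, adjusted p = 0.0239). Leaving out 1 library gave 18 to 30 further replication genes and 16 to 28 mitosis genes that rose, least without WT library 2, and without D542G library 2 they were 19 and 18. In Y541S ML with vehicle 11 replication and 12 mitosis genes rose, where 4.79% of all genes rose, and Mki67 did not pass (0.46, adjusted p = 0.571). Those counts ran from 0 to 6 and from 1 to 4 with 1 library left out, and were lower without each of the 6.

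With giredestrant, 21 further replication genes and 27 mitosis genes fell in D542G ML, where 11.3% of all genes fell. The nuclease gene Dna2 fell by 2.30 (SE 0.38, adjusted p = 0.00186) and the mitotic checkpoint gene Bub1b by 2.10 (SE 0.38, adjusted p = 0.00268). Without vehicle library 2 these were 3 and 9, without giredestrant library 2 they were 12 and 12, and without giredestrant library 1 they were 12 and 22. Levels of Mki67 in D542G ML overlapped, at 4.72, 5.96 and 15.3 CPM with giredestrant and 13.8, 17.4 and 12.3 CPM with vehicle. In D542G Basal 32 further replication genes and all 30 mitosis genes fell, Plk1 by 3.71 (SE 0.88, adjusted p = 0.0069), where 15.6% of all genes fell. Another 2 further replication genes rose. With vehicle library 2 left out 18 and 10 fell, and 13 mitosis genes fell without giredestrant library 3 and 17 without giredestrant library 1.

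In WT Basal 23 further replication genes fell and 1 rose, where 6.53% of all genes fell. Among the mitosis genes Mki67 alone was called (fell by 2.65, SE 0.73, adjusted p = 0.0306), although the median of the mitosis list was -1.57. Treated WT library 3 stood apart there too, with a summed mitosis level of 1193 CPM against 245 and 66.2 CPM in libraries 1 and 2 and 755 to 1946 CPM with vehicle. Without it 32 further replication genes and all 30 mitosis genes fell. The mitosis count was 3 without vehicle library 2 and 0 in the 4 other such fits, and the replication count was 4 without library 1 of either group, 5 without giredestrant library 2 and 9 without vehicle library 3. In Y541S Basal 3 further replication genes rose, 2 fell and no mitosis gene passed with edgeR, where 15.1% of all genes passed in either direction. There 2 mitosis genes had an unadjusted p under 0.05 and DESeq2 called none. The further replication genes that passed numbered 1 without giredestrant library 2, 2 without vehicle library 2 and 3 without library 1 of either group.

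Y541S ML with giredestrant exceeded WT in 10 further replication genes and 15 mitosis genes, where 8.38% of all genes were higher. It was lower in 1 further replication gene. These higher counts were 19 and 26 without WT library 3, 2 and 3 without WT library 2, 3 and 4 without WT library 1, 3 and 8 without Y541S library 1, and 8 and 8 without Y541S library 3. Mki67 had 13.2, 12 and 16.7 CPM there against 2.51, 0.810 and 2.86 CPM in WT, far apart, at 2.73 ± 0.48 (adjusted p = 0.00333). Those Y541S levels were also above Y541S ML with vehicle, at 6.54, 7.3 and 6.43 CPM, without overlap.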

How the data were processed

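Read counts per gene for 51 bulk RNA-seq libraries were deposited by the authors as raw counts, 1 file per library, and GRCm38 is the genome that the submitters' processing notes name. The sources used here name no aligner, counter or strand setting. RNA was turned to cDNA and made into Nextera XT libraries, per the labels' protocols. No 2 libraries of a group agreed within sampling noise (chi-square per degree of freedom 23.7 to 308.5). The members and gene lists were chosen with earlier results of these data known.

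Titles set the groups, and the labelled cell types give the same populations. The source name calls every library mature luminal, against both, and was not used. Each comparison was fitted within its own panel of libraries with edgeR 4.0.16 (R 4.3.3), using TMM scaling, filterByExpr by group and the quasi-likelihood test, with Benjamini-Hochberg adjustment over all genes tested. SE is the size of the log2 ratio over the root of its F statistic. CPM used TMM factors over all 51 libraries. By rule, a main comparison named up to 3 called members of each role with the largest log2 ratios, or the one with the smallest adjusted p where none was called. Those printed here were picked from these, and some others added, after their values were seen. Alternatives were DESeq2 1.42.0, its size factors, no filter on low counts, 1 fit of all libraries, the replicate number as a block, and 96 fits with 1 library left out. The steps were checked on data simulated from the ML panel, with 100 genes changed by 1 and 100 by 2 on the log2 scale. The test called 46% and 79% of them in the right direction, with 4 false calls. A member that was not called is therefore not shown to be unchanged.

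Same-numbered libraries of different populations deviated together in 11 of 18 pairs of populations (every correlation over 0.1), and over all 18 the correlations ran from -0.0057 to 0.44. The block is given beside comparisons of populations where it moved a count by over 1.5 times, with the correlations where the criterion was not met. Between groups of 1 population this was so in 0 of 33 pairs.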

Additional observations from a re-analysis of the deposited data

Results flagged for a closer look

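The effect of giredestrant differed between genotypes, by a test of the difference itself (edgeR, adjusted over all genes), for 7 results. Mean summed levels with vehicle already differed between the genotypes compared, as given above, and the differences of effects include that. In ML cells the difference of D542G from WT was -1.07 for Pola1 (log2 ratio -0.89 in D542G and 0.19 in WT, adjusted p = 0.047), -0.92 for Rfc3 (-0.68 and 0.24, adjusted p = 0.0442) and -1.41 for Dut (-1.12 and 0.29, adjusted p = 0.0272). Of the 12 fits with 1 library left out, these were called in 3, 1 and 7. The adjusted p over those fits ran from 0.0307 to 0.128 for Pola1, from 0.0256 to 0.123 for Rfc3 and from 0.0186 to 0.0821 for Dut. DESeq2 gave 0.0168, 0.0135 and 0.00461.

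In Basal cells the difference of Y541S from WT was 1.48 for Mcm4 (0.57 in Y541S and -0.91 in WT, adjusted p = 0.0288), 1.33 for Pold1 (0.02 and -1.31, adjusted p = 0.0493), 2.02 for Lig1 (0.46 and -1.56, adjusted p = 0.0247) and 2.39 for E2f1 (-0.10 and -2.49, adjusted p = 0.0407). Of 12 such fits they were called in 4, 2, 7 and 2. The adjusted p ran from 0.0112 to 0.0802 for Mcm4, from 0.00618 to 0.134 for Pold1, from 0.00184 to 0.0726 for Lig1 and from 0.000506 to 0.109 for E2f1. No test for a single outlying library was run on groups of 3.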

How the results depend on the processing

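Counts are of called members and no result reversed. Shares over all genes are given for the main edgeR fits and the block only. Counts from DESeq2, from fits with a library left out and from the other alternatives have none beside them. They show how far a count moved, and not whether it stood out from all genes. With DESeq2 the count was 15 for Y541S against WT in ML with vehicle and, with giredestrant, 1 for D542G against WT, 26 for Y541S against WT and 8 for Y541S against D542G in ML, 11 for Y541S against WT in Basal and 1 in LP. It was 3 for Y541S against WT in Basal with vehicle, 9 for the difference of effects of D542G from WT in ML, 18 for that of Y541S from WT in Basal, 4 for N against LP, 6 between the mutants' N cells and 11 for WT LP against Basal. Without the filter it was 1 for giredestrant in Y541S ML, 1 and 10 for those differences of effects and 4 for Y541S against WT in Basal with giredestrant, and 2 for the last with DESeq2's size factors. Fitting all 51 libraries together gave 16 for giredestrant in D542G ML, 0 in Y541S ML, 1 for Y541S against WT in ML with vehicle, 11 with giredestrant, 1 for Y541S against D542G there and 1 for the D542G difference of effects in ML. It gave 3 for Y541S against WT in Basal with giredestrant, 1 for D542G against WT in LP, 2 for N against ML, 11 for N against Basal, 0 between mutants' N cells, 21, 1 and 3 for ML against Basal in WT, D542G and Y541S with vehicle, and 20 and 2 for LP and ML against Basal in WT with giredestrant.

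The replicate block gave 1 for giredestrant in Y541S ML, 4 for Y541S against WT in Basal with giredestrant, 4 between mutants' N cells, 12 for N against ML and 14 against LP. It gave 11 and 25 for ML against Basal in D542G and Y541S with vehicle, and 2, 30 and 13 for LP against ML, LP against Basal and ML against Basal in WT with giredestrant. With the block, 23.3% of all genes passed in either direction for giredestrant in Y541S ML. The share was 12.7% for Y541S against WT in Basal with giredestrant and 11.5% between mutants' N cells. Numbers shared between groups of 1 population are not shown to pair libraries. Alternatives chosen after seeing the data left out pairs of libraries. Without Y541S giredestrant ML libraries 1 and 2, 0 members were called for giredestrant in Y541S and 6 against WT. Without library 3 of both genotypes 28 were called for Y541S against WT in ML with giredestrant and 26 for the Y541S difference of effects in Basal, and without library 3 of Y541S N and ML 12 for N against ML.

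Leaving out 1 library at a time gave, with vehicle in ML, 27 to 38 for D542G and 0 to 4 for Y541S against WT. For giredestrant it gave 0 to 7, 3 to 32 and 0 to 2 in WT, D542G and Y541S ML, and 3 to 38 in WT Basal. Differences of effects ranged from 0 to 8 (D542G) and 0 to 1 (Y541S) in ML and from 0 to 32 (Y541S) in Basal. With giredestrant against WT the ranges were 0 to 1 (D542G) and 5 to 32 (Y541S) in ML and 0 to 3 and 0 to 30 in Basal, and 0 to 4 for Y541S against D542G in ML. N gave 1 to 13 against ML, 1 to 14 against LP, 12 to 22 against Basal and 0 to 3 between mutants. ML against Basal with vehicle gave 27 to 38 in WT, 2 to 3 in D542G and 5 to 12 in Y541S, and in WT with giredestrant 1 to 9, and 2 to 22 for LP against Basal. With 3 libraries a group, 1 library decided many of these counts, and members under about 1 CPM, such as Orc1, rest on few reads. The causes were not tested.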

Other observations

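Genes that control entry into S phase did not all move with the replication genes. Rb1, which holds E2F factors back, rose with giredestrant in ML of every genotype, by 0.88 ± 0.18 in WT (edgeR, adjusted p = 0.00167), 0.97 ± 0.18 in D542G (adjusted p = 0.00318) and 0.82 ± 0.18 in Y541S (adjusted p = 0.00477). Ccnd1, the D cyclin known as an estrogen-responsive gene, rose with giredestrant in WT ML by 1.03 ± 0.25 (adjusted p = 0.00476), whereas in WT Basal it fell by 1.46 (SE 0.28, adjusted p = 0.00738). With vehicle Ccnd1 was higher than WT in ML of D542G (1.23 ± 0.25, adjusted p = 0.00327) and Y541S (0.82 ± 0.25, adjusted p = 0.0435).

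Cdkn1a, an inhibitor of the kinases that drive S phase, fell with giredestrant in WT ML by 0.85 (SE 0.17, adjusted p = 0.00134) and rose in D542G ML by 0.59 ± 0.17 (adjusted p = 0.0245) and in D542G Basal by 1.93 ± 0.32 (adjusted p = 0.00132). The difference of its effect in D542G from WT in ML was 1.44 ± 0.24 (adjusted p = 0.00364). In Y541S ML Cdkn1a rose by 0.52 ± 0.17 (adjusted p = 0.0354), with a difference from WT of 1.37 ± 0.24 (adjusted p = 0.00517). Both differences share the WT libraries. The tumour suppressor gene Cdkn2a was higher in Y541S ML than in WT ML with vehicle, by 4.06 ± 0.87 (adjusted p = 0.00943). These genes were picked from their list after their values were seen.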
